A study of Homo sapiens with 9 samples.

Results

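The genes described here are the 4 p38 mitogen-activated protein (MAP) kinases MAPK14, MAPK11, MAPK12 and MAPK13, 3 kinases that they activate (MAPKAPK2, MAPKAPK3 and RPS6KA5), the transcription factors CEBPB and CEBPD, and the adaptor TRADD. They were picked by symbol, 10 of the 29740 genes in the counts, and all 10 passed the expression filter that left 14740 tested genes. CEBPB, TRADD, MAPK13 and MAPK11 belong to a cluster that the study drew from these same libraries for being lower at both time-points, so their differences from control are given below as a description, with no test. The other 6 genes, and the comparison of 48H with 24H for all 10, were tested. The study sorted its clusters by the pattern over both time-points. For CEBPB, TRADD, MAPK13 and MAPK11 the comparison of 48H with 24H is therefore not independent of the choice.

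RNA was sequenced from HMEC-1, an established line of human dermal microvascular endothelial cells, in 3 libraries of untreated cells (CTRL), 3 of cells given 50 µM trimethylamine N-oxide (TMAO) for 24H and 3 given it for 48H. TMAO is a metabolite that the liver makes from a product of gut bacteria. Treatment was carried out in medium with reduced serum. Untreated cells of 24H and 48H were combined into 1 control group, so how long each had been cultured is unknown and time in culture cannot be told apart from the treatment. Each comparison with CTRL uses the same 3 control libraries. The study's methods speak in general of independent experiments without naming the sequencing libraries, and no label says that the 3 libraries of a group came from separate cultures, so the p-values measure the spread between these libraries, which may be technical.

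The p38 kinases are switched on by stress and by inflammatory cytokines. Kinases upstream of them phosphorylate a threonine and a tyrosine in their activation loop, and dual-specificity phosphatases remove both phosphates. Active p38 then phosphorylates MK2 and MK3 (encoded by MAPKAPK2 and MAPKAPK3), which stabilise the messages of many cytokines, and MSK1 (encoded by RPS6KA5), which phosphorylates CREB and histone H3. C/EBPβ and C/EBPδ (CEBPB and CEBPD) bind promoters of inflammatory genes, and TRADD carries the signal from TNF receptor 1 to kinases upstream of p38 and to NF-κB. RNA counts report the messages of these proteins, not their phosphorylation.

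The stretch of coding sequence around the Thr-Gly-Tyr motif of the activation loop is shown because it is where all 4 p38 kinases are switched on and because it shows how far their messages can be told apart by reads. The sequences were taken from GENCODE 29 (GRCh38), are given 5′ to 3′ on the coding strand, and carry the codons of Thr-Gly-Tyr in capitals. In each gene the 54 bases lie in exon 7 of the transcript used, at chr6:36075872-36075925 (plus strand) for MAPK14, chr22:50266971-50267024 (minus) for MAPK11, chr22:50256122-50256175 (minus) for MAPK12 and chr6:36136680-36136733 (plus) for MAPK13.
MAPK14: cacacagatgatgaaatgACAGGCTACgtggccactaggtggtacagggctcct
MAPK11: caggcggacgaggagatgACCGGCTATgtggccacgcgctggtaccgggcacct
MAPK12: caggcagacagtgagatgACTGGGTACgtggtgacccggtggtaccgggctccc
MAPK13: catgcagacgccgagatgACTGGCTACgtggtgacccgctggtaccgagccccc
MAPK12 and MAPK13 were the closest pair, with 46 of 54 bases identical, and MAPK14 and MAPK13 the most distant, with 38. MAPK14 shared 41 bases with MAPK11 and 40 with MAPK12. Over whole transcripts the longest run of identical bases was 26 between MAPK14 and MAPK11 and 23 between MAPK12 and MAPK13. Among the other members it reached 51 between CEBPB and CEBPD.

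Promoter sequence is shown for 4 members on which the results turn. It is the longest stretch free of annotated exons in the 250 bases before a RefSeq start (GRCh38.p14). It covers chr6:36027558-36027676 (plus strand) for MAPK14, chr14:91060135-91060331 (minus) for RPS6KA5, chr22:50270394-50270592 (minus) for MAPK11 and chr20:50190333-50190582 (plus) for CEBPB. Capitals mark GC boxes, the letters GGGCGG on either strand, which are known binding letters of Sp1.
MAPK14: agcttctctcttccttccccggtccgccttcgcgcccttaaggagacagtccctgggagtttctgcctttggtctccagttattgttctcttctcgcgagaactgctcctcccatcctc
RPS6KA5: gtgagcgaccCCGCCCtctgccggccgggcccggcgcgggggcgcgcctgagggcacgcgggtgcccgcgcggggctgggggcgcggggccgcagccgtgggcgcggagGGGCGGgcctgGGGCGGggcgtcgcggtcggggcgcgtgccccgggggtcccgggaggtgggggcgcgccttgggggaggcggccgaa
MAPK11: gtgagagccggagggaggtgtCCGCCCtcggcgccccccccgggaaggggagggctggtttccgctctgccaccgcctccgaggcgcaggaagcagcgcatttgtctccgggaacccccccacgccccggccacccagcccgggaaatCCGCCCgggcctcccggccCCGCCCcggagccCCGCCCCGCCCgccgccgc
CEBPB: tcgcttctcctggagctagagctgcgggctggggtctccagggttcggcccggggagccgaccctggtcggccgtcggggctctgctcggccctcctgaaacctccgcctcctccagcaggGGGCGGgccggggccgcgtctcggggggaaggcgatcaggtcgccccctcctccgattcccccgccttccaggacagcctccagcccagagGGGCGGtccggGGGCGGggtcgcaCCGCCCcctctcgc
These stretches held 0 GC boxes in MAPK14, 3 in RPS6KA5, 5 in MAPK11 and 4 in CEBPB. The whole windows of 250 bases held 1 in MAPK14 (at base -116), 3 in RPS6KA5, 5 in MAPK11 and 4 in CEBPB. Of the 35116 RefSeq windows of that length, 42.639% held at least 1. GC content of the whole windows was 59.2% for MAPK14, 81.6% for RPS6KA5, 79.2% for MAPK11 and 75.6% for CEBPB, against a median of 58.0% over all windows. The C/EBP letters TTNNGNAA (either strand) were found once among the windows of the 7 members in the table, in that of MAPK14 at base -94, and in 33.201% of all windows. CEBPB and RPS6KA5 have a further annotated start each, and their other windows held no C/EBP letters. Those windows held 5 GC boxes in CEBPB (77.6% GC) and 2 in RPS6KA5 (66.4% GC). The CRE letters TGACGTCA and the AP-1 letters TGANTCA were found in 1.646% and 6.573% of all windows and in no window of these members.

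Total estimated counts ranged from 29160868 to 30069548 per library in controls, from 32179428 to 36927373 at 24H and from 25205756 to 32563494 at 48H, and the 10 members together took 8831 to 11832 counts in a library. Ribosomal RNA genes took 31.5% of the counts of TMAO 24H replicate 1 and 1.64% to 7.46% of those of the other 8 libraries. All 12 endothelial markers (such as PECAM1, CDH5 and VWF) passed the expression filter, with a summed normalised count of 72140 to 82510 in controls, 73210 to 77350 at 24H and 67180 to 72850 at 48H. At 48H 5 of the 12 fell and 0 rose against controls (median log2 fold change -0.16), and 6 were lower and 2 higher than at 24H. Of all tested genes 5.29% fell and 5.14% rose at 48H, and 3.77% were lower and 3.77% higher than at 24H. The fibroblast and mural markers DCN and LUM, and the leukocyte markers PTPRC and CD3E, were at or near 0 (at most 3.02). Of the other leukocyte markers, CD68 ran from 553 to 669, CD14 from 23.5 to 39.9 and LYZ from 0 to 12.1. The 5 leukocyte markers summed to 592.8 to 676 in controls, 650.8 to 694.8 at 24H and 675.1 to 715.1 at 48H. COL1A1 and COL1A2 were plentiful. They brought the summed 8 fibroblast and mural markers to 28420 to 33080 in controls, 28710 to 31020 at 24H and 18000 to 19760 at 48H. The part of these marker levels in the differences at 48H given below was not tested. The 4 epithelial markers, mostly the keratins KRT5 and KRT14, summed to 1692 to 3047 in 8 libraries and to 265.8 in TMAO 48H replicate 3, which stood apart in this respect. Where leaving out TMAO 24H replicate 1 or TMAO 48H replicate 3 ended the call of a gene named below, the value without that library is also given. In RNA from whole cultures, fewer cells of a kind and less RNA per cell cannot be told apart.

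All 4 p38 kinases were expressed. MAPK14, which encodes p38α, the form that most tissues rely on, was the most abundant, and MAPK13 (p38δ) the least. Per kilobase of the median annotated transcript, normalised counts in controls were 2740 ± 34.9 for MAPK14, 559 ± 43.3 for MAPK12, 476 ± 6.98 for MAPK11 and 93 ± 15.5 for MAPK13 (SD, n = 3). The ranges of these 4 did not overlap. On the same scale the kinases downstream stood at 1110 ± 13.5 for MAPKAPK2, 234 ± 11.1 for MAPKAPK3 and 134 ± 4.04 for RPS6KA5, and TRADD stood at 297 ± 41.9, CEBPB at 178 ± 18.2 and CEBPD at 70.4 ± 11.7 (SD, n = 3). CEBPD, from 57.8 to 80.9, and MAPK13, from 78.1 to 109, were the neighbours in this order whose ranges overlapped. The order depends on the transcript length. Per kilobase of the longest transcript MAPK14 fell to 773, below the 960 of MAPKAPK2, and RPS6KA5 to 14.9, below the 30.8 of MAPK13. MAPK12 came to 471, below the 476 of MAPK11, and MAPKAPK3 to 143, below the 178 of CEBPB. MAPK13 also fell below the 70.4 of CEBPD.

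MAPK14 had 3297, 3342 and 3382 normalised counts in the control libraries, 3547, 3309 and 3423 at 24H and 3610, 3742 and 3751 at 48H. Every library at 48H lay above every other library, while 24H and control overlapped. At 48H MAPK14 was 1.11-fold higher than in controls (log2 fold change 0.15, standard error (SE) 0.039, adjusted p = 0.0309 by edgeR's quasi-likelihood test over all tested genes). At 24H the log2 fold change was 0.037 (95% interval -0.048 to 0.12, adjusted p = 0.915), and between 48H and 24H it was 0.11 (0.026 to 0.20, adjusted p = 0.111). The rise at 48H passed in 7 of 16 alternative fits, with adjusted p-values from 0.014 to 0.107. Among others, it did not pass without CTRL replicate 1 (adjusted p = 0.0937), CTRL replicate 2 (0.0898), TMAO 48H replicate 2 (0.107) or TMAO 48H replicate 3 (0.0676), nor with a correction for GC content (0.0829), and the direction was the same in all 16.

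MAPK11 encodes p38β, the form closest to p38α. It had 1138, 1169 and 1166 normalised counts in controls, 1060, 1049 and 1059 at 24H and 1055, 1015 and 1170 at 48H. All 3 libraries at 24H lay below the controls, whereas at 48H replicate 3 reached the level of the controls. On the log2 scale its difference from control was -0.13 at 24H (SE 0.056) and at 48H the difference was -0.10 (SE 0.056), values of the kind that the gene was chosen for. With a correction for GC content the value at 48H was -0.011, and without TMAO 48H replicate 3 it was -0.16. Between 48H and 24H, a comparison not independent of the choice, the log2 fold change was 0.032 (95% interval -0.088 to 0.15, adjusted p = 0.803).

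MAPK12 encodes p38γ and lies next to MAPK11 in the genome. It had 874.2, 854.2 and 984.3 normalised counts in controls, 836.8, 834.5 and 867.5 at 24H and 793.9, 795.3 and 852.7 at 48H. The libraries at 48H all lay below the controls, the closest at 852.7 against 854.2, and those at 24H overlapped both groups. At 24H MAPK12 had a log2 fold change of -0.096 and an adjusted p of 0.818. Its value at 48H, -0.15 (SE 0.063, adjusted p = 0.144), did not pass either. In GENCODE 29, 29.319% of its exon bases are shared with HDAC10 on the same strand, so the authors' counting could split reads between them. The summed counts of MAPK12 and HDAC10 gave a log2 fold change of -0.19 at 48H (SE 0.06, adjusted p = 0.0635).

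MAPK13, which encodes p38δ, was the member with the largest difference from control at 48H. It had 188.9, 160.3 and 223.7 normalised counts in controls, 181.5, 161.5 and 146.8 at 24H and 108.3, 114.5 and 157.6 at 48H. Every library at 48H lay below every control, the highest at 157.6 against 160.3, and the groups overlapped at 24H. The difference from control on the log2 scale was -0.23 (SE 0.16) at 24H and -0.59 (SE 0.16) at 48H, a level 0.664 times that of controls. It was the 1 member at 48H past the study's thresholds of an adjusted p under 0.05 and a 1.4-fold change, which 1.8% of tested genes passed, and nothing is read from that because the gene was chosen on this comparison. Leaving out single libraries gave log2 fold changes at 48H from -0.78 to -0.47, with -0.78 when TMAO 48H replicate 3 was left out. MAPK13 did not pass between 48H and 24H (log2 fold change -0.36, 95% interval -0.72 to -0.013, adjusted p = 0.209).

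**Figure D1:**
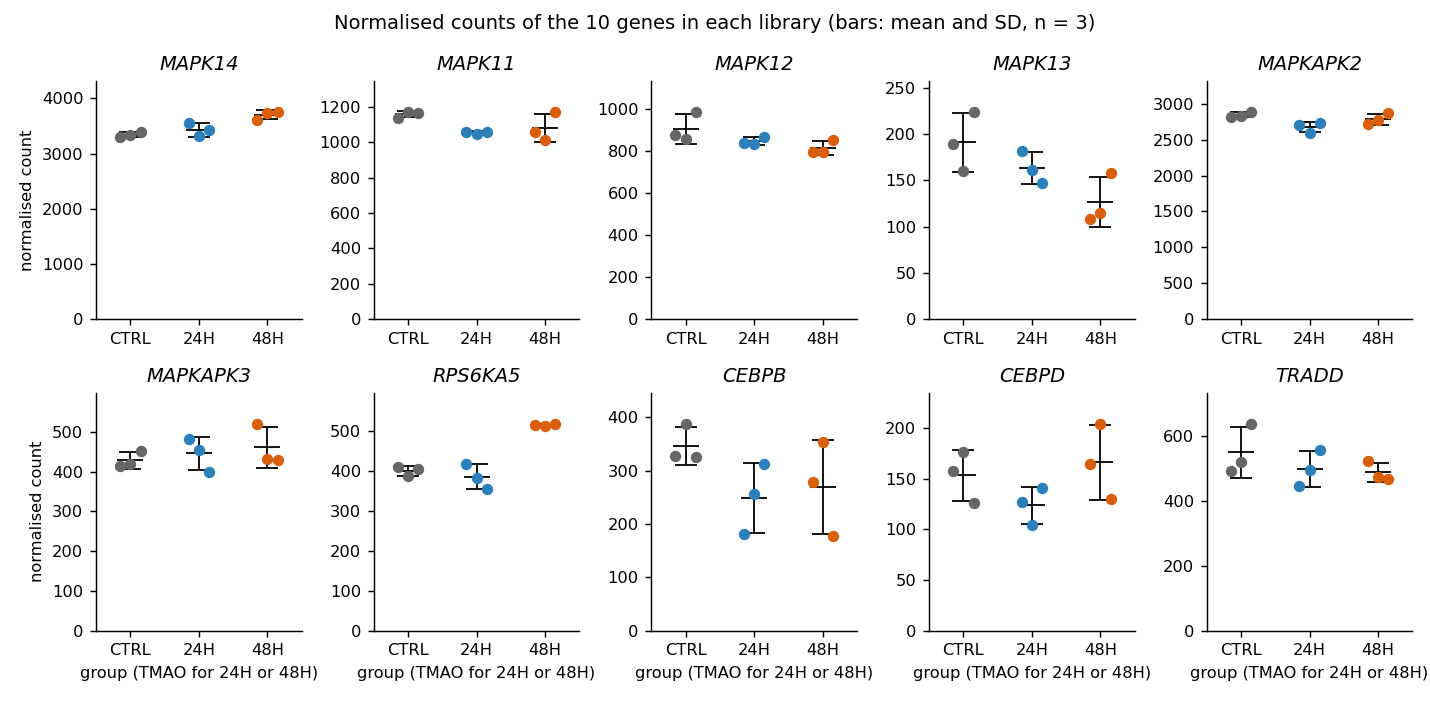
Normalised counts of the 10 genes in each library, with 1 point per library and bars for the mean and SD of 3 libraries. RPS6KA5 at 48H sits between 512.6 and 517.8, above all other libraries, and CEBPB spreads from 177.2 to 353.2 at 48H.

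As a share of the summed normalised counts of the 4 kinases, MAPK14 made up 59.7% ± 0.886 in controls, 62.4% ± 0.634 at 24H and 64.7% ± 1.41 at 48H (SD, n = 3). The ranges were 58.8% to 60.5%, 61.8% to 63.1% and 63.2% to 66%, so that no library overlapped another group. The share of MAPK12 was 16.2%, 15.4% and 14.2% and that of MAPK13 3.41%, 2.97% and 2.21% in the same order of groups. MAPK11 took 20.7% in controls, 19.2% at 24H and 18.9% at 48H. The shares, and the ratio of MAPK14 to MAPK11, were not tested, since MAPK11 and MAPK13 were chosen for being lower. The sum itself was 5593 ± 142 in controls, 5492 ± 135 at 24H and 5721 ± 189 at 48H (SD, n = 3), and its ranges overlapped in every pair of groups. The ratio of MAPK14 to MAPK11 was 2.86 to 2.9 in controls, 3.15 to 3.35 at 24H and 3.21 to 3.69 at 48H. Per kilobase of the longest transcript the share of MAPK14 was lower throughout (44.2%, 46.8% and 49.1%) and its groups kept the same order.

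**Figure D2:**
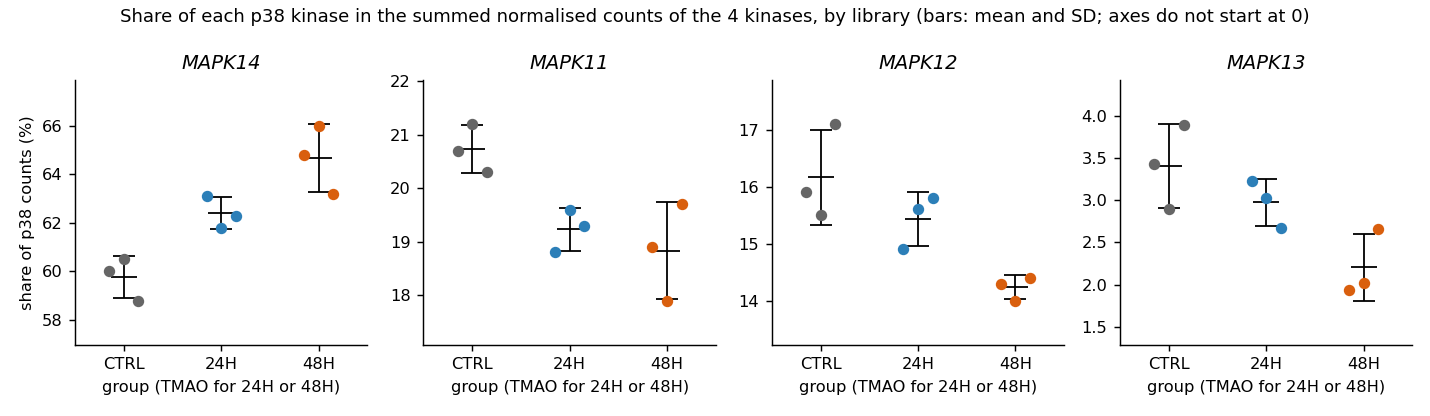
Share of each p38 kinase (%) in the summed normalised counts of the 4 kinases, with 1 point per library and bars for the mean and SD of 3 libraries. MAPK14 goes from 59.7% in controls to 64.7% at 48H, and the axes do not start at 0.

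Of the kinases that p38 activates, RPS6KA5 rose at 48H while MAPKAPK2 and MAPKAPK3 did not pass the test in any comparison. RPS6KA5 encodes MSK1, a nuclear kinase that acts on CREB, ATF1 and histone H3. It had 408.9, 386.3 and 405 normalised counts in controls, 417.9, 381 and 355.4 at 24H and 514.5, 512.6 and 517.8 at 48H. The 3 libraries at 48H lay close together and above all 6 others, and those at 24H spread on both sides of the controls. RPS6KA5 was 1.29-fold higher at 48H than in controls (log2 fold change 0.36, adjusted p = 0.00835, SE 0.075) and 1.34-fold higher than at 24H (0.42, adjusted p = 0.00345, SE 0.075). Both differences passed in all 16 alternative fits, with log2 fold changes of 0.30 to 0.38 and 0.37 to 0.48. Neither reached 1.4-fold. At 24H the log2 fold change was -0.057 (95% interval -0.22 to 0.10, adjusted p = 0.94).

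The neighbouring gene on the opposite strand, C14orf159 (DGLUCY in GENCODE 29), shares 304 exon bases with RPS6KA5 (1.087%), and the sources used here do not say whether strand was used in counting. C14orf159 had log2 fold changes of -0.073 at 48H (adjusted p = 0.46) and -0.15 between 48H and 24H (adjusted p = 0.14), the direction opposite to that of RPS6KA5. RPS6KA4 encodes MSK2, the closest relative of MSK1. Its mean normalised count was 2125 in controls, 2193 at 24H and 1970 at 48H, and it did not pass at 48H (log2 fold change -0.11, adjusted p = 0.162) or between 48H and 24H (log2 fold change -0.15, adjusted p = 0.0655). Whether the pair differed from each other in response was not tested.

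MAPKAPK2 had 2819, 2829 and 2884 normalised counts in controls, 2704, 2592 and 2734 at 24H and 2712, 2776 and 2865 at 48H. The libraries at 24H lay below all controls, and those at 48H overlapped both groups. Its log2 fold change was -0.087 at 24H (95% interval -0.17 to -0.0016, adjusted p = 0.683) and -0.030 at 48H (-0.12 to 0.055, adjusted p = 0.682). MAPKAPK3 ranged from 413.7 to 451.4 in controls, from 400.2 to 482.8 at 24H and from 429.2 to 520.3 at 48H, with overlap in every pair of groups. Its log2 fold change was 0.057 at 24H (95% interval -0.14 to 0.26, adjusted p = 0.955) and 0.10 at 48H (-0.096 to 0.31, adjusted p = 0.521). MAPKAPK2 outnumbered MAPKAPK3 by 6.65 ± 0.23 to 1 in controls, 6.05 ± 0.68 at 24H and 6.1 ± 0.781 at 48H (SD, n = 3), in normalised counts.

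CEBPB had the largest variation between libraries of a group, with a biological coefficient of variation of 0.18 by edgeR, against 0.0423 to 0.146 for the other members. It had 327.1, 388.3 and 326.4 normalised counts in controls, 181.5, 255.8 and 312.4 at 24H and 279.4, 353.2 and 177.2 at 48H. All libraries at 24H lay below the controls, while 1 at 48H lay among them. On the log2 scale CEBPB differed from control by -0.47 (SE 0.22) at 24H and by -0.36 (SE 0.22) at 48H. The lowest library at 24H was replicate 1, the one with 31.5% ribosomal RNA, and the lowest at 48H was replicate 3, the one with few keratin counts. Without these the log2 fold changes were -0.29 at 24H and -0.13 at 48H. Their part in the level of CEBPB was not tested. Without TMAO 48H replicate 2 the value at 48H was -0.61. CEBPB did not differ past the test between 48H and 24H (log2 fold change 0.11, 95% interval -0.36 to 0.58, adjusted p = 0.827), and the sign turned to -0.062 without TMAO 24H replicate 1 and to -0.13 without TMAO 48H replicate 2. CEBPB-AS1, annotated on the opposite strand over 11.81% of the exon bases of CEBPB, was not analysed here.

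CEBPD, whose protein often acts beside C/EBPβ, had 157.7, 176.2 and 125.9 normalised counts in controls, 126.6, 104.3 and 140.6 at 24H and 164.1, 204.3 and 130 at 48H. The groups overlapped in each pair. It did not pass at 24H (log2 fold change -0.31, 95% interval -0.69 to 0.075, adjusted p = 0.782), at 48H (0.12, -0.26 to 0.50, adjusted p = 0.728) or between 48H and 24H (0.43, 0.044 to 0.81, adjusted p = 0.177). The ratio of CEBPB to CEBPD in normalised counts was 2.29 ± 0.27 in controls, 2.04 ± 0.534 at 24H and 1.6 ± 0.204 at 48H (SD, n = 3). At 48H (1.36 to 1.73) it lay below the controls (2.07 to 2.59) in every library. It was not tested, since CEBPB was chosen on these libraries for being lower than control.

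TRADD had 492.6, 519.7 and 638.8 normalised counts in controls, 445.9, 497.1 and 556.8 at 24H and 522.6, 475.6 and 469.5 at 48H. The groups overlapped in each pair, and CTRL replicate 3 was the highest library. Its log2 differences from control were -0.14 at 24H and -0.17 at 48H (SE 0.10 each), and without CTRL replicate 3 these values were -0.015 and -0.054. From 24H to 48H its log2 fold change was -0.032 (95% interval -0.26 to 0.19, adjusted p = 0.903). TRADD shares 126 exon bases (4.908%) with FBXL8 on the opposite strand.

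Across the 10 genes, 2 were higher and 8 lower at 24H, with a median log2 fold change of -0.11 against -0.00042 over all tested genes. The 8 include the 4 genes chosen for being lower. Among the other 6 members, 2 were higher and 4 lower, with a median of -0.072. None of the 10 passed an adjusted p of 0.05 by edgeR, where 0.095% of all tested genes did (0.0475% at 1.4-fold or more). The 3 libraries at 24H lay below all controls for MAPK11, MAPKAPK2 and CEBPB, and for 7.52% of all tested genes. Among the 6 members outside the study's cluster, 0 passed by edgeR or DESeq2 and 1 (MAPKAPK2) had an unadjusted p under 0.05, which 7.24% of all tested genes had. At 48H, 4 were higher and 6 lower, with a median of -0.065 against 0.004. The 6 again include the 4 chosen genes. Among the other 6 members, 4 were higher and 2 lower, with a median of 0.11. MAPK14 and RPS6KA5 rose, 2 of the 6 members outside the cluster, where 10.4% of all tested genes passed, 5.14% higher and 5.29% lower. The libraries at 48H lay above all controls for the same pair, and for 14.7% of all genes, and below them for MAPK12 and MAPK13, and for 13% of all genes. Between 48H and 24H 7 were higher and 3 lower (median 0.052 against 0.004). Among the 6 members outside the study's cluster, 5 were higher and 1 lower, with a median of 0.084. RPS6KA5 was the 1 of 10 that passed, where 7.53% of all genes did and 3.77% were higher. MAPK14 and RPS6KA5 lay above all 24H libraries, as did 14.7% of all genes. In that comparison 0 members were called with edgeR at the 1.4-fold threshold, which 1.71% of all genes passed, and 4 had an unadjusted p under 0.05, which 22.1% of all genes had.

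**Figure D3:**
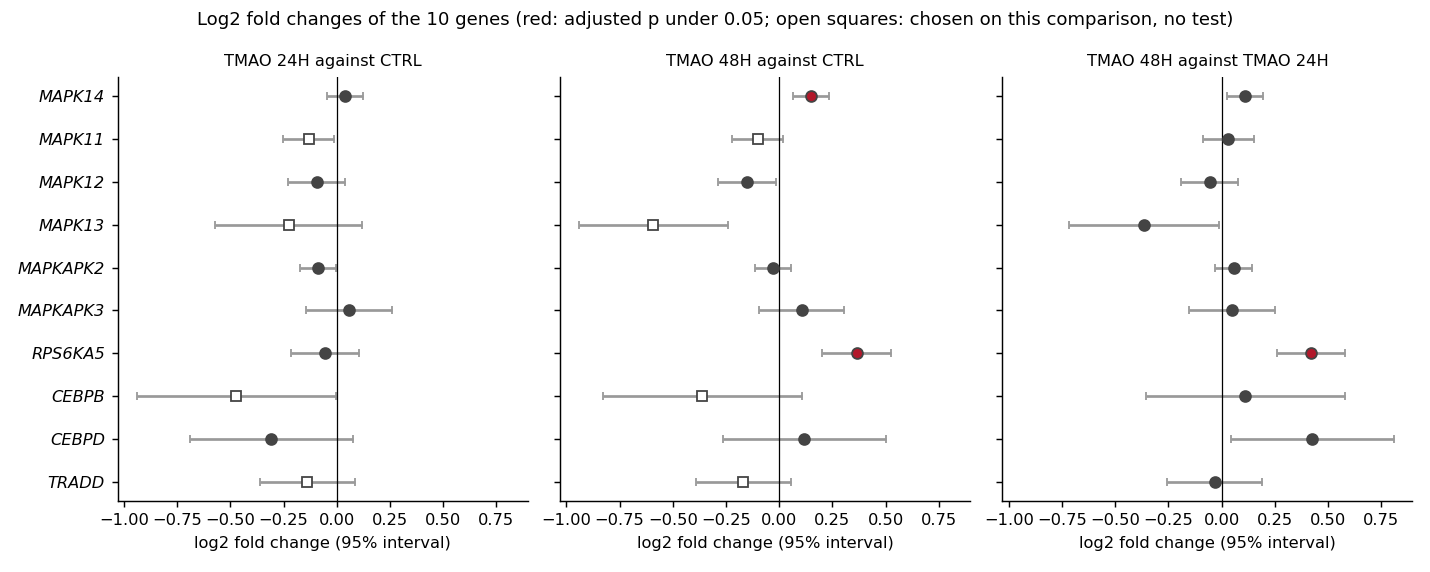
Log2 fold changes of the 10 genes in the 3 comparisons (x axis, with 95% intervals from edgeR). Red circles passed an adjusted p of 0.05, namely MAPK14 at 48H (0.15) and RPS6KA5 at 48H against CTRL (0.36) and 24H (0.42), and open squares are differences from control of the 4 genes chosen for them.

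Of the 10 members, 5 had transcripts among the GC-richest 10% of genes (62.4% GC or more). The median transcript of CEBPD was 70% GC, of CEBPB 66.2%, of MAPK12 64.7%, of TRADD 64.3% and of MAPK11 62.9%. MAPK14 stood at 47.3% and RPS6KA5 at 42.1%. The 1325 GC-richest genes had medians of -0.065 at 24H and -0.11 at 48H on the log2 scale, and the GC-poorest 10% had 0.03 and 0.08. With a per-library correction for GC content the log2 fold changes at 48H were -0.043 for MAPK12, -0.064 for TRADD, -0.21 for CEBPB and -0.55 for MAPK13, against -0.15, -0.17, -0.36 and -0.59 without it. MAPK11 had -0.011 with the correction and -0.10 without. CEBPD, the most GC-rich member, was not lower at 48H. Its log2 fold change there was 0.12 without the correction, and -0.060 to 0.30 over the 16 alternative fits. RPS6KA5 kept 0.30 with an adjusted p of 0.016. What part GC content has in these values was not tested beyond this correction.

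The p38 genes lie in pairs, MAPK12 beside MAPK11 on chromosome 22 and MAPK14 near MAPK13 on chromosome 6, and the genes beside them were read for comparison. PLXNB2, which follows MAPK11, had log2 fold changes of -0.13 at 24H (adjusted p = 0.67) and -0.10 at 48H (adjusted p = 0.263), near those of MAPK11. BRPF3, beyond MAPK13, had 0.16 at 48H (adjusted p = 0.0908), close to the value of MAPK14 and opposite in sign to that of MAPK13. SRPK1, on the other side of MAPK14, had -0.049 at 48H (adjusted p = 0.503). None of these neighbours passed the test.

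The genes with the most similar pattern over the 9 libraries were ranked by Pearson's r of log2 CPM, a count scaled to library size, over 12328 tested genes, as a description of libraries that share their controls and scaling. For MAPK14 they were TP53I11 (r = 0.977), SV2A (0.967) and IFI35 (0.956). For MAPK13 they were EMC3-AS1 (0.974), FAM219B (0.968) and ZNF512B (0.961), and for CEBPB they were MESDC1 (0.974), H1FX (0.967) and TSR3 (0.954). TRADD was followed less closely, by ABHD17A (0.926), MEX3D (0.902) and RSG1 (0.901). Between members, MAPK14 and RPS6KA5 had an r of 0.862 over the 9 libraries and 0.425 after the group means were taken out, and CEBPB and CEBPD had 0.587 and 0.679.

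The counts for the 7 lists that follow stand beside these shares of all tested genes by edgeR. At 24H 0.095% passed and 7.24% had an unadjusted p under 0.05. At 48H 5.14% passed higher and 5.29% lower, and between 48H and 24H 3.77% passed in each direction. Whether a list differed from these shares was not tested. Upstream of p38, 17 of 18 listed kinases and adaptors were tested. None passed at 24H by edgeR or DESeq2, with 3 at an unadjusted p under 0.05, and 4 rose at 48H, while the 2 main p38 activators MAP2K3 and MAP2K6 gave log2 fold changes of 0.0046 and -0.18 and did not pass. GADD45A and GADD45B, small stress-induced proteins that activate the kinase upstream of MKK3 and MKK6, rose at 48H by log2 fold changes of 0.23 (adjusted p = 0.00685) and 0.27 (adjusted p = 0.0272). GADD45B had mean normalised counts of 2082 in controls, 1728 at 24H and 2504 at 48H, and its rise at 48H passed in 9 of 16 alternative fits. It did not pass with a fit of the 2 groups alone (adjusted p = 0.0569), or without any 1 of the 3 CTRL libraries (0.0526 to 0.105), TMAO 48H replicate 1 (0.0774) or TMAO 48H replicate 3 (0.0636). The kinases TAOK1 (log2 fold change 0.26, adjusted p = 0.00403) and ZAK (0.23, adjusted p = 0.00612) rose as well. Compared with 24H, GADD45B (0.54, adjusted p = 3e-04), GADD45A (0.33, adjusted p = 0.00044) and ZAK (0.21, adjusted p = 0.0109) were higher. The difference of ZAK did not pass without TMAO 24H replicate 1 (adjusted p = 0.066) or TMAO 48H replicate 2 (0.0623). The median of the list was 0.041 at 48H.

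Among 7 tested phosphatases of 10 listed, 1 fell at 24H, and 2 rose and 1 fell at 48H. DUSP1, which removes the activating phosphates from p38 and JNK, had mean normalised counts of 1920 in controls, 1267 at 24H and 2970 at 48H. Its level fell at 24H by 0.60 on the log2 scale (adjusted p = 0.0106) and rose at 48H (log2 fold change 0.63, adjusted p = 0.000417). The study had singled out DUSP1 from these same libraries for this fall and rise, so its p-values here are not independent evidence. The fall passed in 12 of 16 alternative fits, and not without TMAO 24H replicate 2 (adjusted p = 0.0845), CTRL replicate 1 (0.0518) or CTRL replicate 2 (0.103). DUSP16 rose (0.23, adjusted p = 0.0161) and DUSP4 fell (-0.30, adjusted p = 0.00144) at 48H. The rise of DUSP16 did not pass without CTRL replicate 2 (adjusted p = 0.0665) or CTRL replicate 3 (0.0558), and its difference between 48H and 24H (0.24) did not pass without TMAO 24H replicate 1 (0.0689) or TMAO 24H replicate 3 (0.0666). DUSP8 was higher at 48H than at 24H (0.50, adjusted p = 0.00447).

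Of 18 other substrates and effectors, 0 passed at 24H by either tool (3 at an unadjusted p under 0.05) and MKNK2, a kinase of the translation factor eIF4E, fell at 48H (log2 fold change -0.15, adjusted p = 0.0371, passing in 7 of 16 alternative fits). Its log2 fold change was -0.058 with the GC correction, and adjusted p-values without single libraries reached 0.144 (without TMAO 48H replicate 2). ZFP36, the RNA-binding protein that MK2 inactivates, was higher at 48H than at 24H (0.47, adjusted p = 0.0181), though not without TMAO 24H replicate 2 (adjusted p = 0.0837), TMAO 48H replicate 2 (0.0833) or TMAO 48H replicate 3 (0.0594). The other MAP kinases gave 1 rise of 7 tested at 48H, that of MAPK9, which encodes JNK2 (0.19, adjusted p = 0.0368), and 1 fall between 48H and 24H, that of NLK (-0.17, adjusted p = 0.0414). The rise of MAPK9 passed in 7 of 16 alternative fits, and not with the GC correction (adjusted p = 0.147) or without CTRL replicate 2 (0.111), CTRL replicate 3 (0.103), TMAO 48H replicate 2 (0.0993) or TMAO 48H replicate 3 (0.104). The fall of NLK passed in 8 of 16, and not with DESeq2 (adjusted p = 0.052) or without TMAO 24H replicate 1 (0.128), 2 (0.0788) or 3 (0.146) or TMAO 48H replicate 1 (0.0916) or 2 (0.133). At 24H 0 of these 7 passed by either tool, also at an unadjusted p under 0.05. Of the 6 tested relatives and partners of CEBPB and CEBPD, ATF3 rose at 48H from 202.6 to 308.6 mean normalised counts (0.61, adjusted p = 0.00425) and lay above its level at 24H (0.67, adjusted p = 0.00195), whereas 0 of 6 passed at 24H with either tool or at an unadjusted p under 0.05.

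Downstream, 8 of 16 listed inflammatory genes were expressed enough to test. At 24H all 8 had negative log2 fold changes, with a median of -0.31, and 0 passed by edgeR, 1 by DESeq2 and 4 at an unadjusted p under 0.05. At 48H the median was 0.19 and CCL2, a monocyte chemokine, rose from 232.9 to 382.4 mean normalised counts (log2 fold change 0.71, adjusted p = 0.00058). Against controls at 48H, IL6 (0.30, adjusted p = 0.367), CXCL2 (0.29, adjusted p = 0.538), CXCL1 (0.37, adjusted p = 0.151) and IER3 (0.092, adjusted p = 0.363) did not pass. Against 24H 5 of the 8 were higher, IL6 (1.1, adjusted p = 0.00494), CXCL2 (1.31, adjusted p = 0.0151), CCL2 (0.91, adjusted p = 5.97e-05), CXCL1 (0.64, adjusted p = 0.0258) and IER3 (0.36, adjusted p = 0.00234), with a list median of 0.54. The difference of CXCL2 did not pass without TMAO 24H replicate 1 (adjusted p = 0.0605), TMAO 24H replicate 3 (0.0727) or TMAO 48H replicate 2 (0.0916). That of CXCL1 did not pass without TMAO 24H replicate 1 (0.0811), TMAO 24H replicate 3 (0.113) or any 1 of the 3 libraries at 48H (0.0517 to 0.0617). The study had named IL6 from these same libraries as lower at 24H and higher at 48H, so its p-value against 24H is not independent evidence.

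Around TRADD, 17 of 18 listed components of the TNF receptor complex were tested, and 0 passed at 24H by either tool (3 at an unadjusted p under 0.05). At 48H CYLD, a deubiquitinase that restrains the complex, rose (log2 fold change 0.28, adjusted p = 0.00294) and TNFRSF25, a death receptor that recruits TRADD, fell from 472.5 to 317.8 mean normalised counts (-0.57, adjusted p = 0.00294). The receptor TNFRSF1A had -0.094 and the kinase RIPK1 0.12 at 48H, and neither passed. CYLD was also higher at 48H than at 24H (0.18, adjusted p = 0.0335), a difference that passed in 8 of 16 alternative fits. It did not pass with a fit of the 2 groups alone (adjusted p = 0.0525), with the GC correction (0.0583) or without TMAO 24H replicate 1 (0.157), TMAO 24H replicate 3 (0.114) or TMAO 48H replicate 2 (0.146). The list median was -0.027 at 48H.

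**Figure D4:**
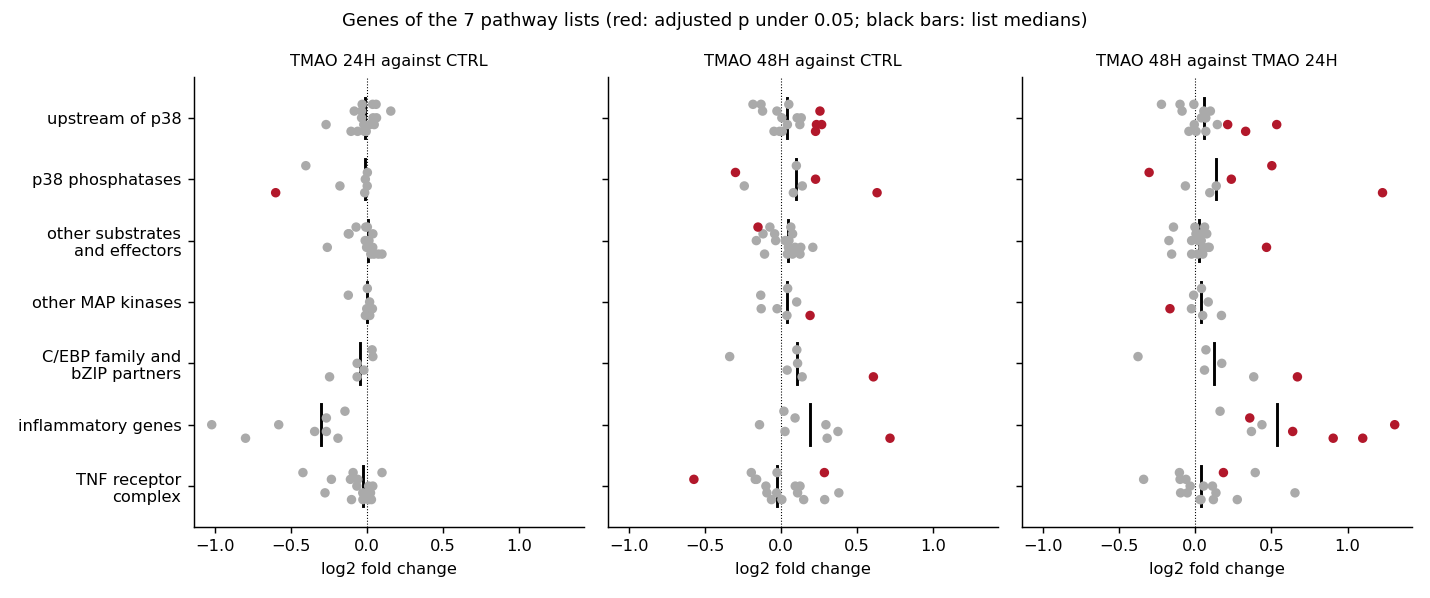
Log2 fold changes of the tested genes of 7 pathway lists in the 3 comparisons, with 1 point per gene, list medians as black bars and genes with an adjusted p under 0.05 in red. The inflammatory genes move from a median of -0.31 at 24H to 0.19 at 48H, and DUSP1 is the 1 red point at 24H.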

How the data were processed

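RNA sequencing covered 9 libraries of HMEC-1. The authors trimmed reads with Trim Galore, per the labels, processed them with nf-core RNAseq 3.6 and deposited estimated counts per gene without normalisation. The genome build, annotation and strand setting are not given in the sources used here. Columns of all samples were used (0 left out). Estimated counts were rounded, and in R 4.3.3 all 9 libraries were fitted together with edgeR 4.0.16 (filterByExpr, TMM, quasi-likelihood test with legacy = FALSE), with Benjamini-Hochberg adjustment over 14740 genes. Genes passed at an adjusted p under 0.05 and were called if they also changed by 1.4-fold or more. Normalised counts are counts per TMM-scaled library at the mean library size. An exact test of 3 against 3 libraries cannot go below p = 0.1.

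The members and gene lists were chosen with earlier results of these data known. Genes named are the members, list genes past the test (at most 4 per list and comparison, by fold change), the 3 genes with the highest r for 4 members (mean count of at least 50), neighbours in RefSeq, and genes added as relatives or examples, or to complete a count (IER3), after their values were seen. Alternatives were DESeq2 1.42.0, RLE factors, other filters, no fold threshold, a fit of the 2 groups compared, the older quasi-likelihood fit, a replicate block, no ribosomal RNA genes, loess corrections (span 0.5) for GC content or GC content and length (GENCODE 29, for 89.8% of tested genes), and leaving out each library. Transcript lengths and exon overlaps came from GENCODE 29, promoters and gene order from RefSeq (GRCh38.p14), which held promoters of 7 of the 10 members.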

Additional observations from a re-analysis of the deposited data

Results flagged for a closer look

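Genes whose level at 48H differed from that at 24H by the test of that difference are listed, so that their distance from the shared controls was not the same at both time-points. Among the members this was RPS6KA5, with a log2 difference of 0.42 (adjusted p = 0.00345 by edgeR). Upstream of p38 the differences were 0.21 for ZAK, 0.33 for GADD45A and 0.54 for GADD45B. For the phosphatases they were 1.23 for DUSP1, -0.30 for DUSP4, 0.50 for DUSP8 and 0.24 for DUSP16. ZFP36 had 0.47, NLK -0.17, ATF3 0.67 and CYLD 0.18. The inflammatory genes had 1.1 for IL6, 0.64 for CXCL1, 1.31 for CXCL2, 0.91 for CCL2 and 0.36 for IER3. DUSP1 and IL6 had already been named by the study from these libraries for such a change. Without TMAO 48H replicate 3 the differences of ZFP36 and CXCL1 did not pass (adjusted p = 0.0594 and 0.0617). Without TMAO 24H replicate 1, the library with 31.5% ribosomal RNA, those of ZAK (adjusted p = 0.066), DUSP16 (0.0689), NLK (0.128), CXCL2 (0.0605), CXCL1 (0.0811) and CYLD (0.157) did not pass.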

How the results depend on the processing

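At 24H the 7 genes called became 11 with DESeq2, 14 with no fold threshold and 1 with the replicate block, and 0 to 9 when single libraries were left out (0 without TMAO 24H replicate 2, where 690 genes had an unadjusted p under 0.05 by edgeR). At 48H 265 genes became 1537 with no fold threshold and 187 to 339 without single libraries, and between 48H and 24H 252 became 1110 and 193 to 257. The 1 member called at 48H was MAPK13, chosen on this comparison, so nothing is read from its call. The count of members became 3 with no fold threshold (MAPK13 among them) and 0 with the replicate block or either GC correction. It was 0 to 1 without single libraries (0 without CTRL replicate 1 or 3 or TMAO 48H replicate 1 or 2). Between 48H and 24H 0 members became 1 with no fold threshold.

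The sign turned for MAPKAPK2 at 48H with the GC correction (0.025) and the GC and length correction (0.026), and for TRADD between 48H and 24H (0.0096 and 0.012). Leaving out single libraries gave ranges across 0 for MAPKAPK3 at 24H (-0.0032 to 0.13), CEBPD at 48H (-0.060 to 0.27) and, between 48H and 24H, MAPK11 (-0.029 to 0.075), MAPKAPK3 (-0.048 to 0.10), CEBPB (-0.13 to 0.34) and TRADD (-0.11 to 0.053). None of these passed the test in any setting.

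Deviations of same-numbered libraries correlated at -0.14 to 0.1 over 9 pairs, against -0.11 to 0.15 over 18 others. Same-numbered libraries were no more alike by this measure, which cannot show whether the numbers mark shared cultures. No label says what they mark. With the replicate block the rise of MAPK14 at 48H had an adjusted p of 0.0769, and the adjusted p was 0.0578 for DUSP1 at 24H, 0.0702 for GADD45B, 0.0646 for MKNK2 and 0.0845 for MAPK9 at 48H, and 0.0957 for NLK and 0.0798 for CYLD between 48H and 24H. The cause of these changes was not tested.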
